A study of Arabidopsis thaliana with 9 samples.

Results

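Some probe sets were brighter in the Arabidopsis thaliana accession C24 than in the accession Col. In a set of 21 of them, the F1 hybrid of Col and C24 lay near Col relative to the linear gap between the parents. A probe set is the group of short probes on the array that reads 1 transcript or a few similar ones. The 21 were chosen from 22746 probe sets by their measured values: with signals under 10 set to 10, the lowest C24 array had to reach 50 and 2 times the highest Col array, and the F1 had to lie under 0.25 on a linear scale where 0 is the mean of Col and 1 the mean of C24. The first pair of criteria was met by 94 probe sets, of which the 21 are 22.3%. Because the criteria used all 3 groups, the levels below and every comparison of the groups for these 21 are a description.

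Of the 21 probe sets, 5 name 1 gene each in the platform annotation, 1 names several genes and 15 are not listed there and are given by their probe set identifier. The named genes are CHI (AT2G43570), which encodes a chitinase, the jacalin-related lectin genes JAL33 (AT3G16450) and AT1G52100, AT1G78450, whose product belongs to the SOUL family of heme-binding proteins, and AT1G21520. Chitinases cleave the chitin of fungal cell walls, and many are induced by pathogens or by the hormone salicylic acid. Jacalin-related lectins bind carbohydrates, and JAL33 is known from protein complexes around PYK10, the beta-glucosidase stored in bodies of the endoplasmic reticulum. C24 is known for a high basal level of salicylate-dependent defence. In a hybrid, a transcript with a level set by each parental copy alone is expected near the mean of both parents, which is 0.5 on the scale used here, whereas regulators made from the other genome can move it towards one parent.

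The groups were the F1 hybrid of Col and C24, the accession C24 and the accession Col, with 3 biological replicates each and 1 Affymetrix array per replicate, 9 arrays in all. Whole seedlings without root were taken at 10 DAS, the labels' unit of age, from plants grown at 22 degrees in light for 16 h and dark for 8 h. The direction of the cross and the pooling of plants are not in the labels, so p-values measure the spread between these samples. Over 15922 tested probe sets, arrays of 1 group correlated at 0.944 to 0.971, and the leaf genes RCA and PSAN had mean signals of 5079 and 3220 in F1, 6228 and 4221 in C24, and 5961 and 3500 in Col. Since each sample is a whole shoot, fewer cells of a type and less RNA per cell cannot be told apart. Signals are deposited values in the arbitrary units of the array, errors are SD over 3 arrays, and a signal is compared only between groups, not between probe sets.

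CHI was the member closest to Col. It had signals of 16.9, 11.6 and 18.3 in F1, 175, 170 and 81.3 in C24, and 14.3, 13.1 and 12.8 in Col. The F1 and Col arrays overlapped, and each C24 array stood far above both groups, with replicate 3 the lowest of C24. The means were 15.6 ± 3.51 in F1, 142 ± 52.7 in C24 and 13.4 ± 0.764 in Col (SD, n = 3 each), so that the C24 mean was 9.12 times the F1 mean, and the F1 lay at a position of 0.017.

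Both jacalin-related lectin genes had F1 signals between those of the parents and, on the linear scale, nearer to Col. JAL33 had signals of 381, 465 and 263 in F1, 1219, 1134 and 1392 in C24, and 74.3, 72.3 and 99.2 in Col. Its F1 arrays formed a group of their own, above every Col array and below every C24 array, and its position of 0.247 was the highest of the 21. AT1G52100 had 70.7, 89.4 and 43.3 in F1, 248, 210 and 260 in C24, and 27.3, 25.8 and 36.3 in Col. Here too the 3 groups did not overlap, F1 replicate 3 was the F1 array nearest to Col, and the position was 0.181. The mean of JAL33 in F1 was 4.51 times that of Col and the mean in C24 was 3.38 times that of F1, so that as a ratio F1 was nearer to C24, and the mean of AT1G52100 in F1 was 2.27 times that of Col.

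The other 2 named genes had smaller differences between the parents. AT1G78450 had signals of 38.5, 49.9 and 29.3 in F1, 76.2, 83.8 and 113 in C24, and 23.6, 22.7 and 26.3 in Col. The F1 arrays lay just above those of Col, and the position was 0.225. AT1G21520 had 19.4, 21.7 and 29.1 in F1, 62.4, 65.9 and 56.3 in C24, and 13.5, 14.0 and 21.0 in Col. For this gene F1 replicate 1 fell within the range of Col, F1 replicate 3 was the highest F1 array, and the position was 0.160.

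**Figure D1:**
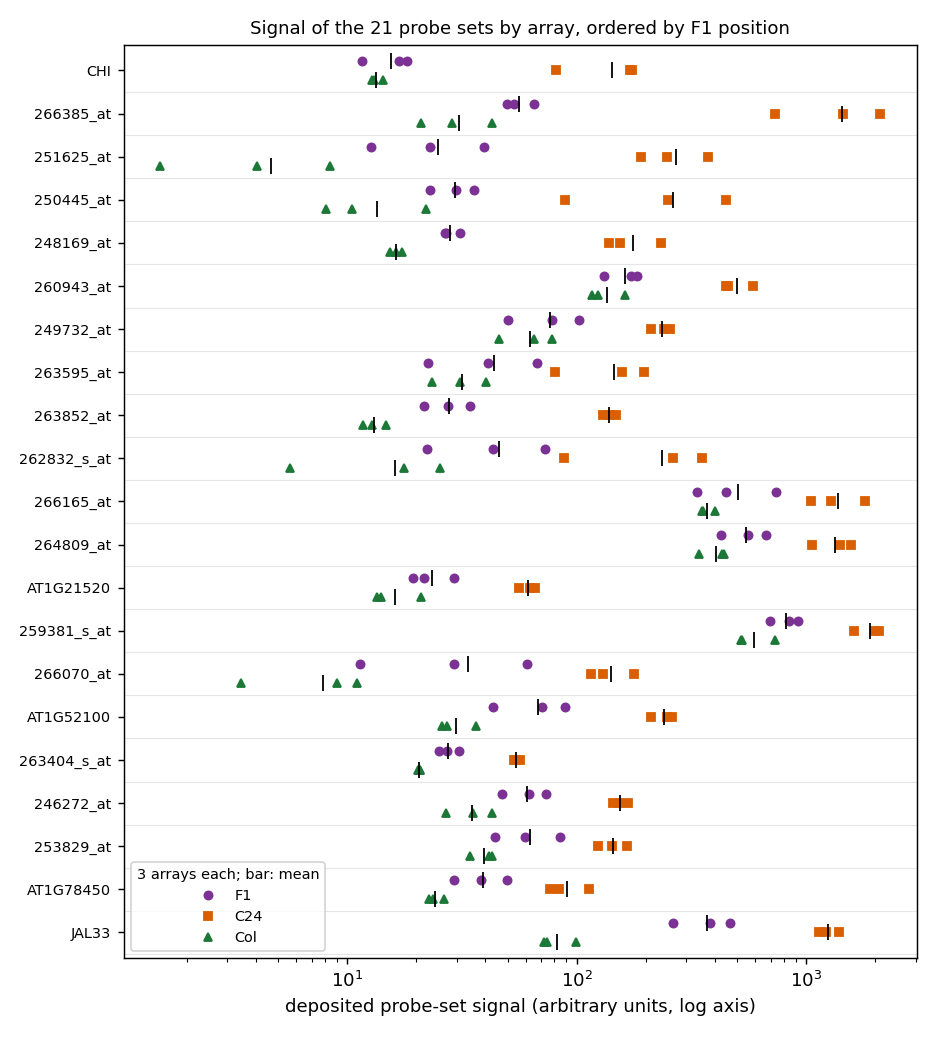
Deposited signal (horizontal log axis, arbitrary units) of the 21 probe sets in each of 3 F1, 3 C24 and 3 Col arrays, with a bar at each group's mean, ordered from the lowest F1 position at the top (CHI, 0.017) to the highest at the bottom (JAL33, 0.247). In each row the F1 points lie below the C24 points; on this log axis the F1 mean of JAL33 lies nearer to C24 than to Col.

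The widest gap between C24 and F1 belonged to the probe set 266385_at. Its signals were 49.5, 64.9 and 53.6 in F1, 2107, 1446 and 730 in C24, and 28.6, 21.0 and 42.7 in Col. All 3 F1 arrays exceeded the highest Col array, yet the C24 mean was 25.5 times the F1 mean and 46.4 times the Col mean, and the position was 0.018. The C24 arrays themselves spread over a range of 2.89-fold.

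The probe sets 266165_at, 264809_at, 259381_s_at and 260943_at differed less between the parents, and Col gave clear signals for each. In 266165_at the signals were 740, 447 and 334 in F1, 1800, 1277 and 1046 in C24, and 399, 354 and 353 in Col. F1 replicate 1 alone was well above Col, at a position of 0.37, while replicates 2 and 3 were at 0.08 and -0.03. In 264809_at they were 667, 556 and 424 in F1, 1562, 1398 and 1063 in C24, and 342, 440 and 429 in Col. The F1 array of replicate 1 was again the highest and that of replicate 3 fell within the Col range. For 259381_s_at the signals were 696, 919 and 842 in F1, 1609, 1993 and 2073 in C24, and 521, 732 and 523 in Col. For 260943_at they were 132, 183 and 172 in F1, 457, 448 and 588 in C24, and 124, 163 and 117 in Col. In both, replicate 2 gave the highest array in F1 and in Col, and 1 F1 array fell within the Col range.

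In 251625_at, 250445_at, 262832_s_at and 266070_at the signal of Col was close to the bottom of the scale. The first had 12.7, 23.0 and 39.3 in F1, 373, 248 and 191 in C24, and 8.42, 1.53 and 4.06 in Col, so that it was the member with every Col array under 10. The second had 23.0, 29.7 and 35.6 in F1, 447, 250 and 89.0 in C24, and 22.0, 10.5 and 8.07 in Col. In both of them C24 replicate 1 was the highest C24 array and F1 replicate 3 the highest F1 array. The third had 22.2, 43.0 and 73.1 in F1, 352, 264 and 88.0 in C24, and 5.63, 17.7 and 25.4 in Col. The fourth had 11.4, 29.2 and 60.5 in F1, 178, 130 and 115 in C24, and 3.46, 11.0 and 9.05 in Col. In these too C24 replicate 1 and F1 replicate 3 were the highest arrays of their groups, and F1 replicate 3 reached positions of 0.26 and 0.38 in them. Each of the 4 had Col arrays under 10, so a ratio to Col is not given for them.

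Among the remaining members, 248169_at and 263852_at had all 3 F1 arrays slightly above Col. The signals were 26.7, 31.1 and 26.9 in F1, 234, 155 and 138 in C24, and 15.4, 17.3 and 16.4 in Col for 248169_at. For 263852_at they were 21.6, 27.4 and 34.4 in F1, 149, 139 and 130 in C24, and 14.8, 11.7 and 12.8 in Col. Their positions were 0.074 and 0.116. The probe sets 249732_at and 263595_at overlapped with Col in F1. The probe set 249732_at had means of 76.8 ± 26.1 in F1, 235 ± 21.9 in C24 and 62.9 ± 16.2 in Col, and 263595_at had 43.5 ± 22.5 in F1, 145 ± 59.2 in C24 and 31.6 ± 8.35 in Col. In 246272_at and 253829_at the F1 stood above Col on each array, with means of 60.9 ± 13.0 and 62.8 ± 20.5 in F1, 155 ± 11.6 and 144 ± 21.5 in C24, and 35.0 ± 7.80 and 39.5 ± 4.61 in Col. The member that names several genes, 263404_s_at, differed least between the parents, at 27.6 ± 2.76 in F1, 54.5 ± 1.8 in C24 and 20.6 ± 0.233 in Col.

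Over the 21, the position ran from 0.017 to 0.247 with a median of 0.138. It was under 0.1 in 7, from 0.1 to 0.2 in 9 and higher in 5. Taken array by array, the median was 0.08, 0.12 and 0.09 for F1 replicates 1, 2 and 3. In 8 of the 21 each F1 array by itself lay under the limit of 0.25, in 12 a pair of arrays did, and in 1, JAL33, it was F1 replicate 3 alone. The members just inside the limit were 253829_at at 0.223, AT1G78450 at 0.225 and JAL33 at 0.247. Just outside it were 253842_at at 0.251, AT1G63540 at 0.271 and AT2G35820 at 0.272, so the limit cuts through a continuous series of positions. On the log2 scale the median position of the 21 was 0.281, and 9 of them lay under the limit.

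**Figure D2:**
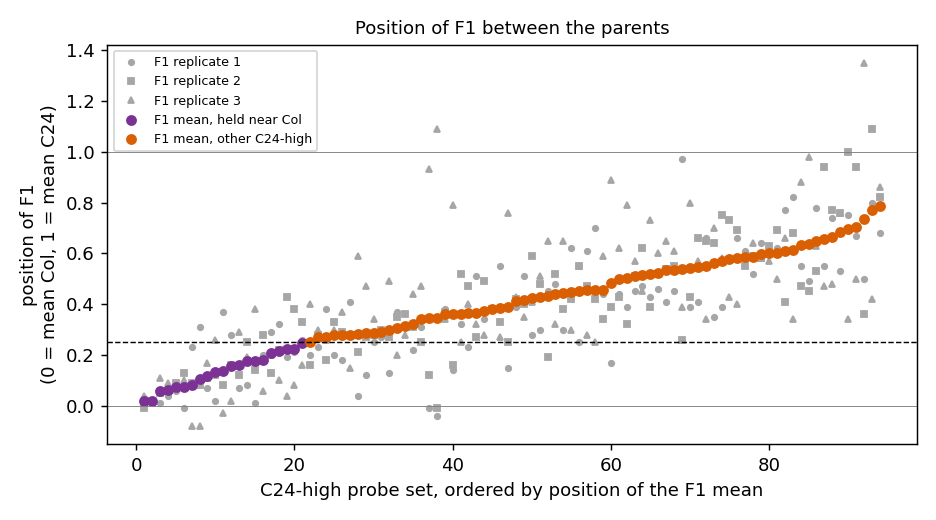
Position of the F1 between the parents (vertical axis, 0 is mean Col and 1 is mean C24) for the 94 C24-high probe sets, ordered by the position of the F1 mean. Coloured points are F1 means, grey points the 3 F1 arrays and the dashed line the limit of 0.25; positions rise without a gap at the limit, from 0.247 to 0.251.

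The lower edges of the other criteria also had close neighbours. With the position and the ratio met, 7 probe sets had a lowest C24 signal from 40 to under 50, of which 5 name 1 gene, and 2 members, AT1G21520 and 263404_s_at, lay between 50 and 60. CML41, a calmodulin-like calcium sensor gene, was among the 7, with 14.1, 8.74 and 15.2 in F1, 52.0, 50.9 and 42.8 in C24, and 10.4, 15.9 and 17.3 in Col. No F1 array exceeded the highest Col array, and its position was -0.043, below that of every member. The other named genes of the 7 were the cytochrome P450 gene CYP71B23 at 0.170, AT3G27473 at 0.204 and the pair AT1G23850 and AT1G23840 at 0.152 and 0.155. With the lowest C24 array at 1.5 to under 2 times the highest Col array there were 13 further probe sets, and at 2 to 2.5 times there were 3 members, 259381_s_at, 263595_at and 264809_at.

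All 21 passed the filter on low signal, and a limma fit over all 15922 tested probe sets and 9 arrays was read for them without taking its calls as support. At an adjusted p under 0.05, 21 of 21 were higher in C24 than in Col, against 3.56% of all tested. The fit called 18 of 21 lower in F1 than in C24, against 0.377% of all tested, and the members not called were 263595_at, 262832_s_at and 266070_at. That count was 11 without C24 replicate 2, and 13 with no filter on low signal. Against 1.7% of all tested, 0 of 21 were higher in F1 than in C24, and against 0.1%, 0 of 21 were lower in F1 than in Col. JAL33 was the single member called higher in F1 than in Col, 1 of 21, against 0.408% of all tested. There were 2 without Col replicate 1, which added 251625_at, and 2 without F1 replicate 3, which added AT1G52100. The median log2 difference of the 21 from Col was 0.64 in F1, against 0.00 over all tested, and at an unadjusted p under 0.05 in limma 13 of 21 were higher in F1 than in Col, against 4.74% of all tested. In deposited signals the F1 arrays were all above the Col arrays in 12 of 21, against 6.82% of all tested, and all below the C24 arrays in 21 of 21, against 8.12%.

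Replicate numbers were not used to choose the members, and the spread within groups followed them unevenly. In F1 the highest array was replicate 1 for 6 members, replicate 2 for 8 and replicate 3 for 7, or 28.6%, 38.1% and 33.3%, against 29.7%, 27.7% and 42.6% of all tested. Of the named genes JAL33, AT1G52100 and AT1G78450 were highest in F1 replicate 2 and in C24 replicate 3. CHI, 251625_at, 250445_at, 263852_at, 262832_s_at and 266070_at were highest in C24 replicate 1 and in F1 replicate 3, which is 28.6% of the members, against 17.8% of the other 73 C24-high probe sets and 10.3% of all tested. In C24, replicate 1 was the highest array in 11 of 21 members, 52.4%, against 32.9% of the other 73 C24-high probe sets and 31.9% of all tested. The criteria did use the array values themselves, so these counts are not independent of the choice and are a description too.

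**Figure D3:**
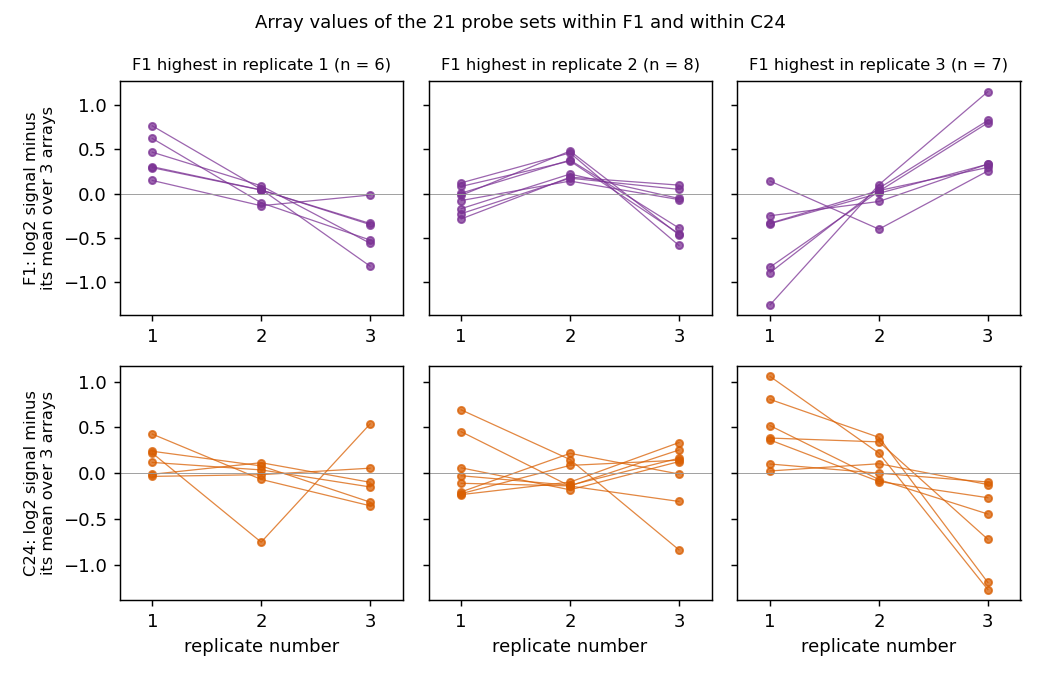
Log2 signal of each of the 21 probe sets minus its mean over the 3 arrays of the group (vertical axis, values under 10 set to 10) by replicate number, for F1 (upper row) and C24 (lower row), with columns by the F1 replicate that was highest. In the right column, which holds CHI, 6 of 7 probe sets are highest in F1 replicate 3 and in C24 replicate 1; the lines join the values of 1 probe set and imply no order of the replicates.

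A limma F test of replicate number, with group in the fit, called 0 of 21 members at an adjusted p under 0.05, against 2.84% of all tested. At an unadjusted p under 0.05 there were 3 of 21, namely 249732_at, 266165_at and 246272_at, against 15.4% of all tested. The test asks for a shift shared by the 3 groups at 1 replicate number. It therefore does not describe members whose highest arrays carried different numbers in F1 and C24, among them the 6 with C24 replicate 1 and F1 replicate 3. The number was the same in F1 and C24 in few members, 3 at replicate 1, 1 at replicate 2 and 0 at replicate 3.

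The C24 arrays differed more among themselves in some members. The highest C24 array was at least 2 times the lowest in 5 of 21, 23.8%, against 6.85% of the other 73 C24-high probe sets and 5.8% of the 10437 tested probe sets with a lowest C24 signal of 50 or more. The criteria used the C24 values, and a single high C24 array raises the C24 mean and lowers the position. This share is therefore partly built in by the choice of the members. The 5 were CHI, 266385_at, 250445_at, 263595_at and 262832_s_at, and the range was 5.03-fold in 250445_at. In 4 of the 5 replicate 3 was the lowest C24 array, the exception being 263595_at. At the other end, the C24 arrays of 263404_s_at lay within 1.06-fold.

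The 21 were then set beside the other 73 C24-high probe sets, which met the same criteria on the parents. The C24 mean over the Col mean, with signals set to at least 10, had a median of 4.59 in the members and 4.68 in the others, with ranges of 2.64 to 46.4 and 2.51 to 130. For the F1 mean over the Col mean, the median was 1.62 in the members, with a range of 1.16 to 4.51, and 2.72 in the others. The median position was 0.138 in the members, by choice, and 0.456 in the others. Of the others, 48 named 1 gene, 2 several and 23 none that is listed, against 5, 1 and 15 of the members. Probe sets marked in the identifier as reading several similar transcripts (s or x) were 3 of 21 and 6 of 73. Within the others the F1 reached the lowest C24 array in 17, and within the members in 0 of 21, where the F1 array closest to C24 was at 0.835 of the lowest C24 array. This difference too follows largely from the limit on the position.

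Gene families of the named members were followed through lists written with earlier results of these data known. Here and below, a gene counts as measured if a probe set names it alone in the annotation. A gene not counted may still be read by a probe set that is not listed there, members included. Of 25 jacalin-related lectin genes 12 were measured and 8 tested, of which 4 were higher and 0 lower in C24 than in Col, against 3.56% and 4.91% of all tested. Among the 4 are JAL33 and AT1G52100, which were chosen for a high signal in C24. Of the other 6 tested genes 2 were higher in C24, and their median log2 difference between C24 and Col was 0.55, against 0.03 over all tested. The 2 were JAL34, a neighbouring gene of JAL33, at 468 ± 76.0 in F1, 872 ± 112 in C24 and 150 ± 30.4 in Col, and AT1G52000, at 177 ± 16.1 in F1, 315 ± 110 in C24 and 126 ± 50.0 in Col (SD, n = 3 each). JAL34 was higher in C24 than in Col by 2.55 ± 0.20 on the log2 scale (limma, SE, adjusted p = 4.53e-05) and higher in F1 than in Col by 1.67 ± 0.20 (adjusted p = 0.00644). For AT1G52000 the difference of C24 from Col was 1.40 ± 0.30 (limma, adjusted p = 0.0184), a call lost without C24 replicate 3 and with no filter (adjusted p up to 0.0600). The positions of the 4 genes were 0.247 for JAL33, 0.181 for AT1G52100, 0.440 for JAL34 and 0.267 for AT1G52000. JAL22, a jacalin-related lectin gene outside the list that was chosen after its values were seen, is among the other 73 C24-high probe sets. It had 213, 264 and 271 in F1, 337, 428 and 472 in C24, and 121, 129 and 131 in Col, a position of 0.429. Its 3 groups did not overlap.

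JAL23, another lectin of the family, did not pass, at 68.6 ± 18.1 in F1, 58.0 ± 9.12 in C24 and 36.5 ± 20.6 in Col (limma, C24 against Col, adjusted p = 0.177). Its log2 difference of C24 from Col was 0.97. In the other tested lectins that were not called, the difference was -0.79 in AT2G25980, 0.13 in AT1G73040 and 0.0 in AT1G33790. PYK10, whose product is found with several of these lectins, had 529, 627 and 776 in F1, 1062, 1318 and 1857 in C24, and 293, 243 and 304 in Col, a position of 0.322. The position of PYK10 was above the limit, and its difference of F1 from Col did not pass (limma, adjusted p = 0.0690) but passed with replicate number as a block (limma, adjusted p = 0.0108). PYK10 is also a root marker. Of 10 root and root-hair markers 3 were measured, with summed signals of 559 to 795 in F1, 1076 to 1865 in C24 and 274 to 334 in Col, nearly all of it from PYK10. The root-hair genes EXPA7 and EXPA18 were at 8.85 ± 3.05 and 18.0 ± 4.66 in F1, 2.2 ± 1.23 and 8.85 ± 2.66 in C24, and 7.98 ± 5.03 and 20.1 ± 6.85 in Col. Neither mean in C24 exceeded that of Col or F1, but these signals were near the bottom of the scale. EXPA7 was under the filter on low signal and was not tested, and EXPA18 was not called between C24 and Col (limma, adjusted p = 0.122). The part of root tissue in the lectin signals was not tested.

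**Figure D4:**
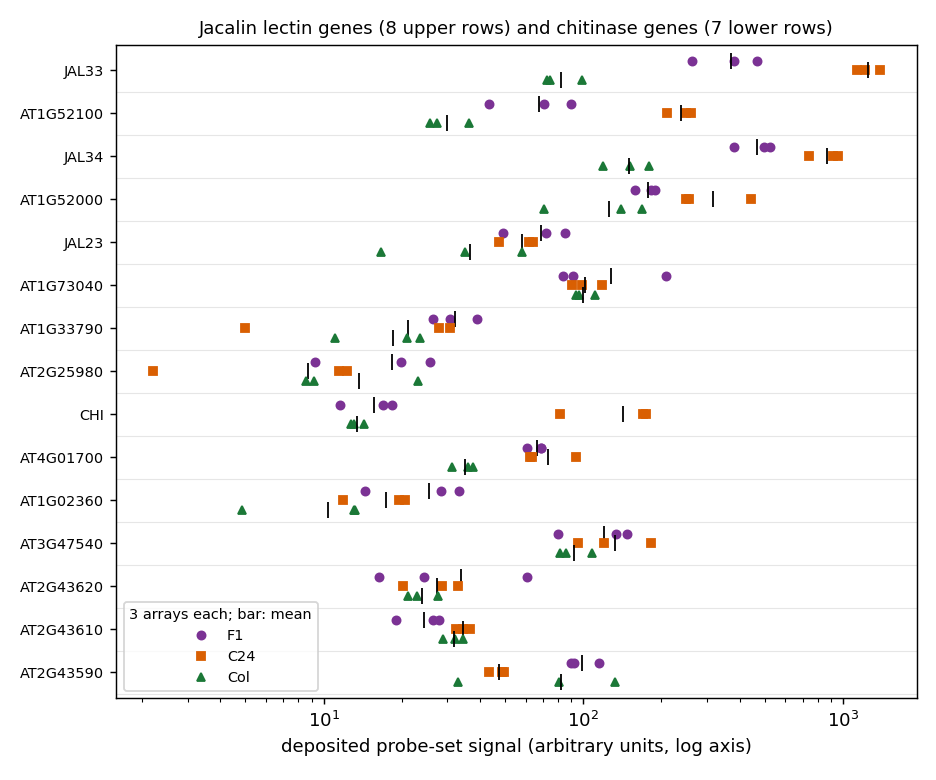
Deposited signal (horizontal log axis, arbitrary units) of the 8 tested jacalin-related lectin genes (upper rows) and the 7 tested chitinase genes (lower rows) in 3 F1, 3 C24 and 3 Col arrays, with a bar at each group's mean. Each family is ordered by its difference between C24 and Col; CHI is the chitinase gene with C24 arrays far above the F1 and Col arrays.

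Of 15 chitinase genes 10 were measured and 7 tested, of which 2 were higher and 0 lower in C24 than in Col, against 3.56% and 4.91% of all tested. One of these was CHI, which was chosen for a high signal in C24, and the other 6 tested genes had a median log2 difference between C24 and Col of 0.45, against 0.03 over all tested. The second was AT4G01700, at 66.2 ± 4.80 in F1, 73.4 ± 17.9 in C24 and 35.0 ± 3.44 in Col, higher in C24 than in Col by 1.17 ± 0.19 on the log2 scale (limma, SE, adjusted p = 0.00422). Unlike CHI its F1 mean lay near that of C24, at a position of 0.812. Of the listed loci that follow CHI in the numbering, AT2G43580 and AT2G43600 were under the filter on low signal, and AT2G43590, AT2G43610 and AT2G43620 were tested. These 3 had adjusted p of 0.588, 0.551 and 0.725 for C24 against Col in limma, and AT2G43590 was at 99.2 ± 13.7 in F1, 47.3 ± 3.42 in C24 and 82.3 ± 50.1 in Col.

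Of 39 salicylate and pathogen response genes 5 were measured and 4 tested, and 3 of these were higher and 0 lower in C24 than in Col, against 3.56% and 4.91% of all tested. Beside CHI, which was chosen for this difference, these were GRX480, a glutaredoxin gene of the salicylate response, and AT5G55450, a lipid transfer protein gene. GRX480 was at 35.9 ± 14.8 in F1, 50.1 ± 14.1 in C24 and 13.6 ± 0.822 in Col, a position of 0.612, and was higher in C24 than in Col by 1.95 ± 0.31 on the log2 scale (limma, SE, adjusted p = 0.00338). AT5G55450 had 190, 279 and 840 in F1, 1041, 997 and 620 in C24, and 178, 225 and 193 in Col, a position of 0.346. Its first and second F1 arrays were near Col and the third, replicate 3, above the lowest C24 array. The call of AT5G55450 did not hold after leaving out Col replicate 1, 2 or 3 or C24 replicate 1 or 2, nor with no filter (limma, adjusted p up to 0.0780). WRKY53, a transcription factor gene of the defence response, was at 65.0 ± 28.8 in F1, 39.4 ± 32.3 in C24 and 25.1 ± 24 in Col and did not pass. Of 19 jasmonate and ethylene response genes 3 were measured and 2 tested, with 0 called in any of the 3 comparisons by limma. In PDF1.2b, a defensin gene, the means were 58.3 ± 7.39 in F1, 25.4 ± 9.46 in C24 and 19.0 ± 7.70 in Col (F1 against Col, adjusted p = 0.106).

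Of 12 calmodulin-like genes 8 were measured and 6 tested, of which 1 was higher and 0 lower in C24 than in Col, against 3.56% and 4.91% of all tested. In F1, 1 of the 6 was lower than in C24, against 0.377% of all tested. CML41, described above beside the lower limit on C24, was the gene called in both. It met the criteria on the position and the ratio, so its calls are a description. It was higher in C24 than in Col by 1.85 ± 0.27 on the log2 scale (limma, SE, adjusted p = 0.00189), and F1 minus C24 was -2.16 ± 0.27 (adjusted p = 0.00216). The other 5 were not called in any comparison by limma, among them CML23 at 22.2 ± 6.35 in F1, 18.4 ± 3.03 in C24 and 15.0 ± 3.86 in Col. CML41 had F1 and Col arrays that overlapped, as CHI did.

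Within 10 genes on either side of each of the 5 named members, by the gene order of the TAIR10.1 assembly, 5 to 15 of 20 genes were measured and 0 were members. The 15 members with no listed gene and the 1 that names several could not be counted as neighbours, so the positions of the members relative to each other are largely unknown here. Around CHI, 10 neighbours were tested, of which AT2G43550 was higher in C24 than in Col, at 845 in F1, 1394 in C24 and 692 in Col, and AT2G43535, AT2G43540 and AT2G43560 were lower (limma, adjusted p of 0.0144, 0.000127, 0.00171 and 0.0221). The adjusted p of AT2G43560 reached up to 0.265 in limma, and its call was lost with the deposited scaling, with a common median, and when replicate 2 or 3 of Col, or replicate 1 or 3 of C24, was left out. AT2G43535 was at 116 in F1, 18.3 in C24 and 119 in Col, so that at this locus as at CHI the F1 mean lay near Col while C24 differed in the opposite direction. Around JAL33 the neighbour JAL34 was higher in C24 than in Col and UGT88A1, a glycosyltransferase gene, was lower, at 1261 in F1, 1076 in C24 and 1519 in Col (limma, adjusted p = 0.0115). With a common median or without Col replicate 2 the call of UGT88A1 was lost (adjusted p up to 0.163). Around AT1G52100 the neighbours AT1G52000 and AT1G52140 were higher in C24 than in Col. For AT1G52140 (limma, adjusted p = 0.0414) leaving out Col replicate 1 or 2, C24 replicate 2 or 3 or any F1 array ended the call, as did the deposited scaling and no filter (adjusted p up to 0.135). Around AT1G21520 the neighbour AT1G21440 was higher in C24 than in Col, and around AT1G78450 GSTU20, a glutathione transferase gene, was (limma, adjusted p of 0.0370 and 0.0378). Both calls were lost in several settings, among them no filter and leaving out any C24 array (adjusted p up to 0.115 and 0.141). The tested neighbours numbered 10 around CHI, 10 around AT1G21520, 6 around AT1G52100, 5 around AT1G78450 and 5 around JAL33. Over all tested probe sets, limma called 3.56% up and 4.91% down in C24 relative to Col. Whether the neighbours exceed these rates was not tested.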

How the data were processed

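The deposited values are intensities, 1 linear signal per probe set and array, made by the authors with GCOS, as named in the submitters' processing notes without a version. Each deposited column had a trimmed mean of 150.01 to 150.02, from the values. Detection calls were not used here, and precision is limited by the number of arrays.

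The 64 control probe sets were left out and the members were chosen on the deposited signals. For the fits the median log2 signal of the columns spanned 0.238, over the limit of 0.2, so arrays were quantile normalized, set to at least 1 and put on the log2 scale. Probe sets under the 30th percentile of the mean (signal 11.1) were left out, and 15922 were fitted with limma 3.58.1 in R 4.3.3 (group means, eBayes with trend, p-values adjusted by Benjamini-Hochberg, called under 0.05), which was tested on simulated data. No test of a gene list was made, and promoter motifs were not analysed here.

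Of all probe sets 13513 name 1 gene, 503 several and 8730 are not listed; 13436 matched a locus of TAIR10.1. Lists held 147 loci, of which 42 were measured, that is, named alone by a probe set in the annotation, with the brightest taken. Of the cysteine-rich receptor-like kinase and leaf senescence genes 0 were, though probe sets that are not listed may read such genes. Named were all members that name 1 gene, the 3 probe sets on either side of the position limit, the 5 brightest members without a listed gene, listed genes and neighbouring genes; the remaining members, the genes near the other limits and the probe sets singled out by replicate were chosen after their values were seen. The members and lists were chosen with earlier results of these data known. Deviations from the group means correlated between arrays of replicate 1 in C24 with Col (0.494), F1 with Col (0.473) and F1 with C24 (0.455). For replicates 2 and 3 the values were lower, at 0.148 and 0.201, 0.108 and 0.124, and 0.013 and 0.148 in the same order. Some arrays of different numbers correlated as highly as these, such as F1 replicate 3 with Col replicate 2 (0.185) and F1 replicate 2 with C24 replicate 3 (0.205). Arrays of replicate 1 correlated negatively with every array of another number in the other groups, from -0.345 (F1 replicate 1 with C24 replicate 3) to -0.098 (F1 replicate 1 with C24 replicate 2). The arrays of replicate 1 thus shared a deviation, but the values do not settle whether the numbers pair samples. The fits had no block, so their p-values ignore any pairing, and a fit with replicate number as a block was an alternative.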

Additional observations from a re-analysis of the deposited data

How the results depend on the processing

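The rule gave 21 probe sets on the deposited scaling, 34 after scaling columns to a common median, 32 with a position limit of 0.3, 11 with a ratio of 3 to Col and 9 with the position on the log2 scale; 20 of the 21 were shared with the 28 found after quantile normalization. Leaving out single arrays gave 21 to 30, with 17 to 21 of the members shared. Their median position of 0.138 was 0.114 with signals set to at least 20, 0.281 on the log2 scale and 0.13 to 0.161 without single arrays. With the filter at the 50th percentile 11 members were tested; C24 exceeded Col in 11, and F1 was below C24 in 10. Without single arrays the counts were 21 in each case above Col in C24, 1 to 2 higher in F1 than in Col, 11 to 19 lower in F1 than in C24 and 0 in each case differing by replicate number. With replicate number as a block 21, 1 and 20 members were called in the first 3 comparisons, and over all probe sets those lower in F1 than in C24 numbered 97, against 60 without it. Among the members, listed genes and called neighbours, the block added the calls of 263595_at and 266070_at (F1 below C24, adjusted p = 0.0325 and 0.0303) and of PYK10 (F1 above Col, and F1 below C24 with 0.00925), and changed no other call. With no filter, 0 of all probe sets differed by replicate number, against 452. The cause of these shifts was not tested. Signals near the bottom of the scale limit what can be said of members with Col arrays under 10, of which there were 4, and of members with F1 and Col arrays just above it, such as CHI.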

Other observations

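AT3G48640, which is no member, resembled 266070_at in its F1 arrays. It had signals of 16.1, 40.5 and 96.9 in F1, 162, 184 and 123 in C24, and 0.837, 0.954 and 0.858 in Col, and its position of 0.282 lay just above the limit. Of the other 73 C24-high probe sets, 13 were highest in C24 replicate 1 and in F1 replicate 3, among them AT5G55450 and AT1G63540. JAL22, a further jacalin-related lectin gene outside the lists, had 213, 264 and 271 in F1, 337, 428 and 472 in C24, and 121, 129 and 131 in Col, a position of 0.429. These genes were chosen after their values were seen.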
